A study of Homo sapiens with 12 samples.

Results

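The genes described here are 48 genes of the mitotic programme, taken by name from the 59385 gene names of the count table. They are cyclins of G1/S, S phase, G2 and mitosis with their kinases and CKS subunits, the phosphatases and kinases that switch CDK1, Aurora and Polo-like kinases, and the chromosomal passenger complex. They also include spindle checkpoint genes, subunits, coactivators and E2 enzymes of the anaphase-promoting complex (APC/C), securin and separase, and 6 spindle and chromosome proteins whose mRNAs are high in G2 and mitosis. The rule is a list of names and uses no measured value, though the list was drawn up with earlier results of these data known. All 48 were in the table and all were tested, with 27 as the smallest count of any of them in a library.

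Cyclin A and cyclin B bind CDK2 and CDK1, and the small CKS subunits dock the kinase on phosphorylated substrates. WEE1 and PKMYT1 hold CDK1 inactive by phosphorylation, CDC25 phosphatases reverse this, and Aurora and Polo-like kinases then drive the entry into mitosis and the building of the spindle. The spindle checkpoint holds back the APC/C with CDC20 until chromosomes are attached, after which the APC/C marks securin and cyclin B for destruction and separase cuts cohesin. Most of these genes are transcribed late in the cell cycle, in part through promoter elements named CHR (cell cycle genes homology region) and CCAAT boxes. In bulk RNA from asynchronous cells, fewer cells in a phase and less RNA per cell cannot be told apart.

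The cells were HEK293T, an immortalized line from human embryonic kidney, made to carry a Dox-inducible shRNA, either non-silencing (shCtrl) or directed at the coding region of PRRC2B (shPRRC2B). Both lines were stable single clones selected with puromycin, so shRNA and clone cannot be told apart, and both received Dox for 36 h. Total RNA and polysome-associated RNA (the pooled gradient fractions 6 to 10) were sequenced after poly(A) enrichment in 3 biological replicates each. The 12 libraries held 9855734 to 20837542 counts. Cells for the gradients were given cycloheximide before lysis. Levels are given as CPM (counts scaled to library size) with TMM factors over all libraries. The TE change is the log2 of the polysome-to-total ratio in shPRRC2B over that in shCtrl. Changes in total RNA and in polysome RNA are log2 ratios of shPRRC2B over shCtrl. Calls needed an edgeR adjusted p below 0.05 together with a log2 change of more than 0.5 up or down.

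PRRC2B itself lay between 258 and 313 CPM in shCtrl total RNA and between 97.9 and 103 CPM in shPRRC2B total RNA, a log2 change of -1.49 (standard error 0.17, edgeR adjusted p = 4.25e-06). Of the genes listed for the kidney lineage of HEK293T, PAX2, EYA1 and VIM were measured in every library, and LHX1 stayed under 0.33 CPM. Of 5 genes listed for other cell types, PTPRC, ALB and PECAM1 stayed under 0.44 CPM in every library, EPCAM lay between 0.874 and 8.46 CPM and COL1A1 between 2.93 and 34.0 CPM. In total RNA, COL1A1 lay between 14.6 and 19.3 CPM in shCtrl and between 30.4 and 34.0 CPM in shPRRC2B, and EPCAM between 1.92 and 2.15 CPM and between 0.874 and 0.966 CPM. VIM lay between 119 and 128 CPM in shCtrl total RNA and between 222 and 248 CPM in shPRRC2B total RNA, and overlapped in polysome RNA. PAX2 lay between 2.55 and 3.91 CPM in shCtrl polysome RNA and between 5.25 and 6.71 CPM in shPRRC2B polysome RNA, and overlapped in total RNA. The part of these differences between the clones in the results was not tested. Replicates of polysome RNA differed more than those of total RNA. The median distance of a library from the other replicates of its group, over the 48 genes, was between 0.060 and 0.095 on the log2 scale for total RNA and between 0.18 and 0.22 for polysome RNA. The largest distances were those of replicate 1 of the shPRRC2B and the shCtrl polysome libraries, and TE calls that change without either of these 2 libraries are given below.

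Sequences are shown for the genes whose total RNA changed most, since promoter elements bear on that readout and since CKS1B and CKS2 moved alike. The RefSeq table of promoters on GRCh38.p14, windows that reach from upstream of the start into the first bases of the gene, held 38 of the 48 genes. The stretch just before the RefSeq start is printed for CKS1B and CKS2, which fell in total RNA, for MKI67 and CCNF, which rose, and for UBE2S, which fell. In GENCODE, CKS1B starts at 154974653 and CCNF at 2429394, so their stretches reach into the gene as annotated there. Capitals mark the CHR letters TTTGAA or TTCGAA and the CCAAT box, each on either strand. In MKI67 the last of the CHR letters and a reversed CCAAT box share a base.
CKS1B promoter, chr1:154974561-154974680, plus strand: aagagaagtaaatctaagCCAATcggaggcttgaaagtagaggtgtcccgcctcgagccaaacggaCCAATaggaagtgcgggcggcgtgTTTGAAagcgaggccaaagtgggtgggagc
CKS2 promoter, chr9:89311075-89311194, plus strand: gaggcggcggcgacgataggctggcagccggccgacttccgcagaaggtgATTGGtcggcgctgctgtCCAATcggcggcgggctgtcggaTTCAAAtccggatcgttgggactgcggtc
MKI67 promoter, chr10:128126424-128126543, minus strand: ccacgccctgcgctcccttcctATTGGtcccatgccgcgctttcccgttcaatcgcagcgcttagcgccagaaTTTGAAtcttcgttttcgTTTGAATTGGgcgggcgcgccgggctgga
CCNF promoter, chr16:2429327-2429446, plus strand: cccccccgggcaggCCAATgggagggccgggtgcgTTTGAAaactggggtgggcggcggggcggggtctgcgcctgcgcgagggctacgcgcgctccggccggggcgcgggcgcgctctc
UBE2S promoter, chr19:55407789-55407908, minus strand: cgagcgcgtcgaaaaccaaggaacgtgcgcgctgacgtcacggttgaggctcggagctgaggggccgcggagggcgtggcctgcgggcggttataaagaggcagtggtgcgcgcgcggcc

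The CHR letters were present in 21 of the 38 promoter windows (55.26%), against 16.62% of all 27305 windows of that length, and CCAAT in 27 (71.05%) against 35.7%. Both were present in 16 windows (42.11%), against 6.58% of all windows. The E2F letters TTTCCCGC, TTTGGCGC or TTTCGCGC were in 4 windows (10.53%, CDK1, CDC25A, CDC16 and CDC23), against 2.79%. The CHR letters of CKS1B lay 30 to 25 bases before the RefSeq start and those of CKS2, on the opposite strand, 29 to 24 bases before it. MKI67 had the CHR letters at 29 to 24 bases before the start as well, and its total RNA went the other way. UBE2S had no CHR letters in its window and a CCAAT box at 191 to 187 bases before the start, outside the stretch shown. Of the 21 genes with the CHR letters anywhere in the window, total RNA rose in 4 (CCNF, ANAPC1, ANAPC7 and MKI67) and fell in 2 (CKS1B and CKS2). Their median log2 change was 0.23, and 14.9% of all genes tested rose and 14.1% fell. Of the 17 without the letters, total RNA rose in 2 and fell in 2, with a median of 0.11. The letters of ANAPC1 lay at bases 38 to 43 after the start. Those of ANAPC7 lay 236 to 231 bases before it, on the opposite strand. Whether such matches act as a CHR was not tested.

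CKS1B and CKS2 code for proteins of the same length and could share reads, so their coding sequences were compared. Both have 240 bases with the stop codon, of which 175 (72.92%) are identical. Capitals mark the 65 positions at which they differ, and the longest stretch without a difference has 15 bases, shorter than the shortest read kept by the trimming.
CKS1B coding sequence: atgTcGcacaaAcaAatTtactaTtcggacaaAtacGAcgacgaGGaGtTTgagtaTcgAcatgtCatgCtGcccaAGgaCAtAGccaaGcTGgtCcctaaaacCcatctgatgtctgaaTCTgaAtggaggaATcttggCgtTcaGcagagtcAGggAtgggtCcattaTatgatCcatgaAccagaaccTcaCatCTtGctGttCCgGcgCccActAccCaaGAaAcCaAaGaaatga
CKS2 coding sequence: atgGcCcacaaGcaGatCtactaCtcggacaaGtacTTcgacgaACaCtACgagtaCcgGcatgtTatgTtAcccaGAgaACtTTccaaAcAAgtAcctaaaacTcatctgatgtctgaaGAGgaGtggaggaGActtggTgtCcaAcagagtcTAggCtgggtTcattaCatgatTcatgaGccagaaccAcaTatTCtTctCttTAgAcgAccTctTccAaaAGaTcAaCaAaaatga

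To see how the polysome association of the mitotic genes differed between the lines, the TE change was taken first. TE rose in 3 of the 48 genes, the CDK-binding subunits CKS1B and CKS2 and the APC/C subunit ANAPC5, where 10.7% of all 18166 genes tested were TE-up. TE fell in 11 genes, where 16.4% of all genes were TE-down: the phosphatase gene CDC25A, INCENP, the checkpoint gene BUB1B, ANAPC1 and CDC27 of the APC/C, and TPX2, ASPM, CENPE, CENPF, TOP2A and MKI67. The last 6 are all members of the spindle and chromosome group, whose median TE change was -1.44. The median over the 48 genes was -0.30, beside -0.034 over all genes tested. The counts of TE-down genes moved with the replicate 1 polysome libraries, to 22 without the shPRRC2B one, where 18.8% of all genes were TE-down and 9.86% TE-up, and to 17 without the shCtrl one, where 19.6% were TE-down and 13.3% TE-up. Without the shPRRC2B one, all 11 were still TE-down, joined by CCNA2, CCNB1, CCNF, CDK1, CDK2, CDC25B, PLK1, CDCA8, BUB1, TTK and ESPL1. Without the shCtrl one, ANAPC1 was not called, and CCNE2, CCNA2, CDK1, CDC25B, CDC25C, PLK1 and ESPL1 were TE-down in addition.

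**Figure D1:**
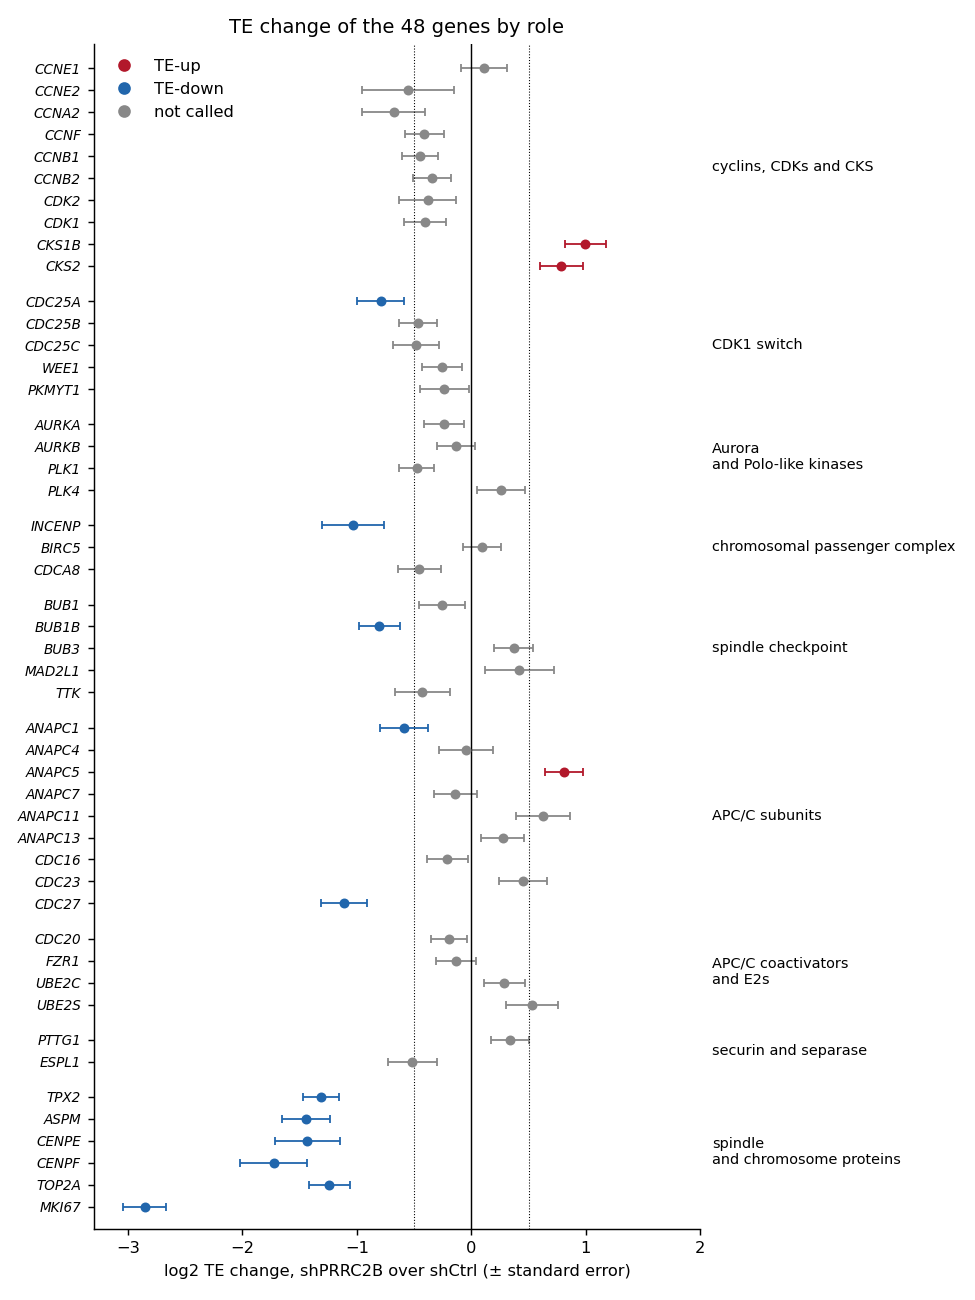
Log2 TE change of shPRRC2B over shCtrl for each of the 48 genes, grouped by role, with the standard error of the edgeR fit as bars (3 libraries per line and fraction). Red points are TE-up, blue points TE-down and grey points not called, and dotted lines stand at 0.5 and -0.5. The 6 spindle and chromosome genes lie between -2.85 and -1.24, and CKS1B lies highest at 1.00.

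Total RNA rose in 6 of the 48 genes, where 14.9% of all genes rose, and fell in 4, where 14.1% of all genes fell. Those that rose were CCNF, CDC25B, ANAPC1, ANAPC4, ANAPC7 and MKI67, by 0.53 to 0.78 on the log2 scale, and those that fell were CKS1B, CKS2, CDC16 and UBE2S. Polysome RNA rose in 3 genes (ANAPC4, ANAPC5 and CDC23), where 18.4% of all genes rose, and fell in 13, where 21.4% of all genes fell: CDK1, CDC16, UBE2S and 10 of the TE-down genes, all of them but ANAPC1. The median log2 change over the 48 genes was 0.14 in total RNA and -0.085 in polysome RNA, beside 0.039 and -0.011 over all genes tested. Of the 11 TE-down genes, 9 had a call of lower polysome RNA only, ANAPC1 of higher total RNA only, and MKI67 of both. Of the 3 TE-up genes, ANAPC5 had a call of higher polysome RNA only, and CKS1B and CKS2 of lower total RNA only. Changes short of a call also enter the TE change. Total RNA of INCENP, BUB1B, CDC27, TPX2, ASPM and CENPE was higher in every shPRRC2B library, and that of CDC25A and TOP2A lower, without a call.

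**Figure D2:**
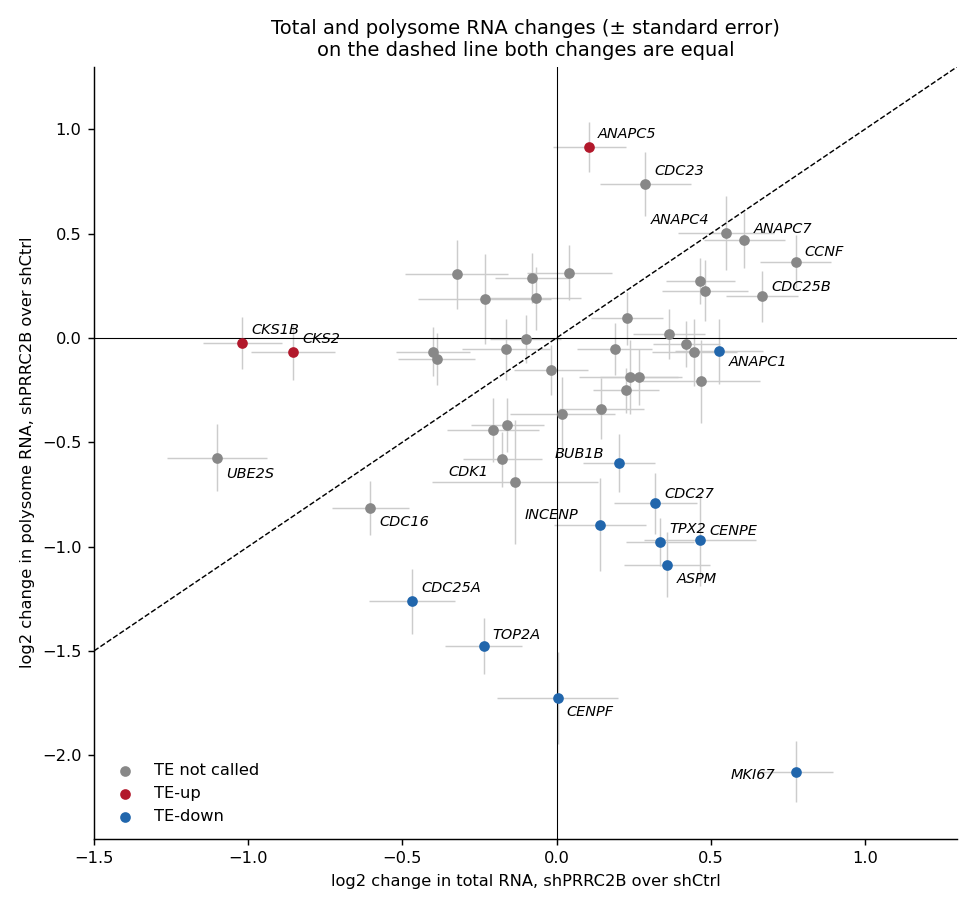
Log2 change in total RNA (horizontal axis) and in polysome RNA (vertical axis), shPRRC2B over shCtrl, for the 48 genes with standard errors as bars; on the dashed line both changes are equal. CKS1B and CKS2 lie left of the line near a polysome change of 0, MKI67 lies lowest at -2.08 with a total RNA change of 0.78, and TOP2A and CENPF lie below the line with total RNA changes of -0.24 and 0.0032.

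Among the cyclins, kinases and CKS genes, the CKS genes stood apart from the cyclins. In total RNA, CKS1B (ENSG00000173207.13, chromosome 1, 154974653 to 154979251, plus strand) was at 68.1, 80.3 and 71.9 CPM in shCtrl and 38.4, 36.1 and 34.2 CPM in shPRRC2B. In polysome RNA it was at 550.2, 656 and 609.8 CPM in shCtrl and 536, 591 and 659 CPM in shPRRC2B. The total RNA of shPRRC2B was lower in every library, with 73.4 ± 6.24 CPM (SD, n = 3) against 36.2 ± 2.07 CPM (SD, n = 3), while the polysome libraries of the lines overlapped. The total RNA change was -1.02 (standard error 0.13, edgeR adjusted p = 1.54e-05) and the polysome RNA change -0.024 (95% interval -0.29 to 0.24, edgeR adjusted p = 0.907). Its TE change of 1.00 (standard error 0.18, edgeR adjusted p = 0.000694) thus came with a call in total RNA only.

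CKS2 (ENSG00000123975.5, chromosome 9, 89311195 to 89316703, plus strand) was at 59.5, 58.9 and 58.7 CPM in shCtrl and 32.1, 35.1 and 30.8 CPM in shPRRC2B in total RNA. Its polysome libraries held 710.2, 672 and 563 CPM in shCtrl and 621, 527 and 706 CPM in shPRRC2B. The groups again parted in total RNA only. The total RNA change of CKS2 was -0.85 (standard error 0.14, edgeR adjusted p = 0.00015), the polysome RNA change -0.068 (95% interval -0.35 to 0.21, edgeR adjusted p = 0.711) and the TE change 0.79 (standard error 0.19, edgeR adjusted p = 0.00549). CKS2 was no longer called TE-up with the trend on transcript length removed (0.32, edgeR adjusted p = 0.243), nor were CKS1B and CKS2 with the trend on coding length removed (0.45 and 0.26). The fall of both in total RNA was called under every alternative tried.

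**Figure D3:**
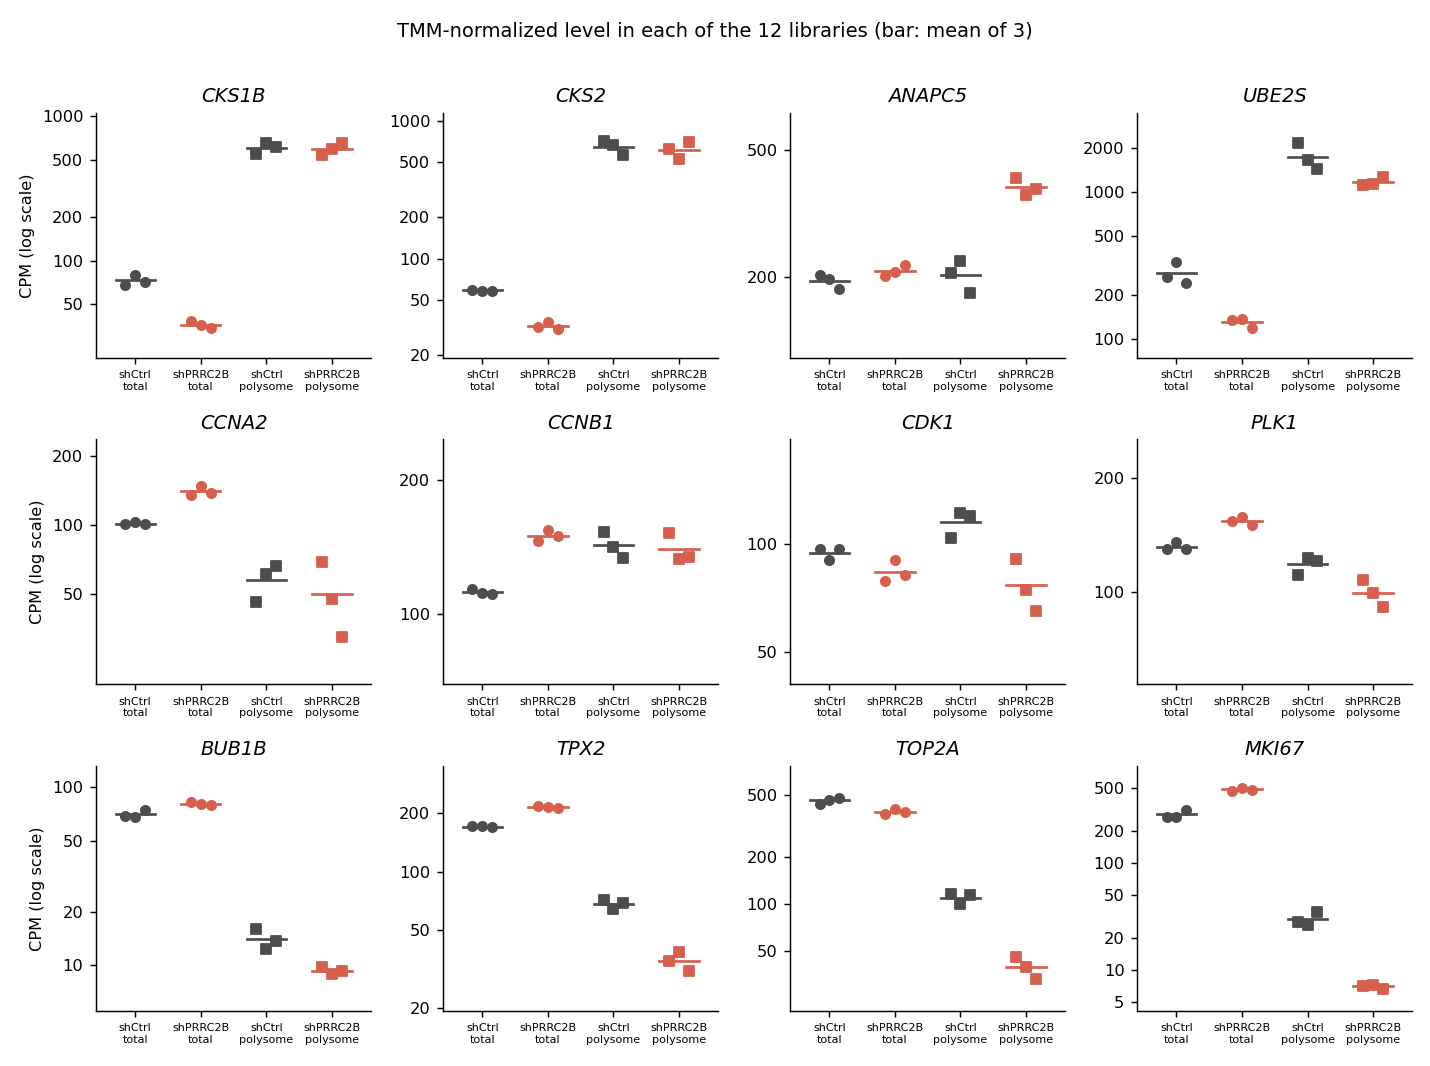
TMM-normalized level (CPM, log axis) of 12 of the genes in each of the 12 libraries, shCtrl in grey and shPRRC2B in red, circles for total RNA and squares for polysome RNA, with a bar at the mean of 3 replicates. CKS1B, CKS2 and UBE2S are lower in total RNA of shPRRC2B, ANAPC5 is higher in its polysome RNA, and MKI67 is higher in total and lower in polysome RNA of shPRRC2B, without overlap of the libraries.

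The cyclins were not called in TE. CCNA2, cyclin A2 of S phase and G2, was at 101, 103 and 101 CPM in shCtrl and 135, 148 and 139 CPM in shPRRC2B in total RNA. The polysome levels were 46.0, 60.9 and 65.9 CPM in shCtrl and 69.2, 47.7 and 32.2 CPM in shPRRC2B. The lines did not overlap in total RNA and did in polysome RNA, where the shPRRC2B replicates spread over more than the shCtrl ones. The TE change of CCNA2 was -0.68 (standard error 0.28, edgeR adjusted p = 0.0779). Without shPRRC2B polysome replicate 1 it was -1.06 (edgeR adjusted p = 0.00184) and without shCtrl polysome replicate 1 it was -0.85 (edgeR adjusted p = 0.0192), both past the thresholds. It was also past them with a replicate block within each line, which joins the total and polysome library of a number (-0.73, edgeR adjusted p = 0.0448), and with every gene of at least 1 count kept (-0.72, edgeR adjusted p = 0.00816).

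CCNB1, the main mitotic cyclin, was at 114, 111 and 111 CPM in shCtrl and 146, 155 and 149.7 CPM in shPRRC2B in total RNA. Polysome RNA of CCNB1 stood at 153, 141 and 134 CPM in shCtrl and 152, 133 and 134 CPM in shPRRC2B. All 3 shPRRC2B libraries of total RNA were higher than those of shCtrl, by 0.42 on the log2 scale, under the size needed for a call, and the polysome libraries overlapped. Its TE change of -0.45 (standard error 0.15, edgeR adjusted p = 0.0386) also missed the size threshold. CCNB2, the other B-type cyclin of the list, was at 46.7, 43.9 and 46.3 CPM in shCtrl and 56.8, 59.9 and 59.4 CPM in shPRRC2B in total RNA. CCNB2 in polysome RNA was at 68.8, 88.2 and 73.4 CPM in shCtrl and 81.9, 75.6 and 75.8 CPM in shPRRC2B. It had the same arrangement of groups, with a TE change of -0.35 (standard error 0.17, edgeR adjusted p = 0.135).

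CDK1, the kinase of mitotic entry, was at 96.4, 90.2 and 96.5 CPM in shCtrl and 78.7, 90.1 and 81.8 CPM in shPRRC2B in total RNA. Among polysome libraries it lay at 103, 122 and 119.6 CPM in shCtrl and 90.5, 74.3 and 65.2 CPM in shPRRC2B. The shPRRC2B libraries lay below the shCtrl ones in both fractions, narrowly so in total RNA. Polysome RNA of CDK1 fell, with a log2 change of -0.58 (standard error 0.13, edgeR adjusted p = 0.00162), and the TE change was -0.41 (standard error 0.18, edgeR adjusted p = 0.111). Of the other cyclin and CDK genes, CCNF, the F-box cyclin, rose in total RNA (0.78, standard error 0.11, edgeR adjusted p = 7.33e-05), with a TE change of -0.41. CCNE1, CCNE2 and CDK2, the G1/S cyclins and their kinase, were not called in total RNA, polysome RNA or TE, with TE changes of 0.11, -0.55 and -0.38. The exons of CCNE2 overlap those of INTS8 on the opposite strand over 37.0% of their bases, and those of CDK2 an antisense RNA over 14.5%, and the counting used no strand option. An antisense RNA also overlaps the exons of PLK1 over 11.6% of their bases, and another those of CCNF over 8.35%. Exons of CCNA2 overlap EXOSC9 over 9.24% and those of CDC25C overlap FAM53C over 8.80%, both on the opposite strand.

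In the CDK1 switch, the phosphatase gene CDC25A fell in TE and the kinases that oppose it were not called. CDC25A (ENSG00000164045.12, chromosome 3, 48157146 to 48188417, minus strand) was at 122, 136 and 117 CPM in shCtrl and 95.5, 90.7 and 85.0 CPM in shPRRC2B in total RNA. In polysome RNA it was at 47.2, 39.4 and 34.5 CPM in shCtrl and 20.2, 16.4 and 13.8 CPM in shPRRC2B. No library of shPRRC2B reached the lowest of shCtrl in either fraction. Its polysome RNA fell (-1.26, standard error 0.16, edgeR adjusted p = 6.66e-06), its TE fell (-0.79, standard error 0.21, edgeR adjusted p = 0.00949), and its total RNA change of -0.47 (standard error 0.14, edgeR adjusted p = 0.016) missed the size threshold, which it passed in 6 alternatives (-0.54 to -0.51) and without 8 of the 12 libraries in turn. CDC25B rose in total RNA (0.67, standard error 0.12, edgeR adjusted p = 0.000323), with a TE change of -0.47, and CDC25C had a TE change of -0.48 (standard error 0.20, edgeR adjusted p = 0.0849).

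WEE1, which phosphorylates CDK1, was at 70.0, 74.4 and 69.4 CPM in shCtrl and 62.9, 65.9 and 62.6 CPM in shPRRC2B in total RNA. Its polysome libraries held 24.6, 30.6 and 24.4 CPM in shCtrl and 18.8, 20.1 and 20.7 CPM in shPRRC2B. The lines did not overlap in either fraction, and the differences were under the size threshold, -0.16 in total and -0.42 in polysome RNA. PKMYT1, the membrane-bound kinase of the same type, had a TE change of -0.24 (standard error 0.21, edgeR adjusted p = 0.442), and 24.7% of its exon bases overlap PAQR4 on the opposite strand. CDC25A was not called in TE with the trend on transcript length removed (-0.52, edgeR adjusted p = 0.0722).

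The Aurora and Polo-like kinases were not called in TE, total RNA or polysome RNA. AURKA, which acts at centrosomes and spindle poles, was at 64.9, 68.1 and 62.1 CPM in shCtrl and 72.4, 75.3 and 74.4 CPM in shPRRC2B in total RNA. The polysome levels were 80.4, 67.2 and 70.1 CPM in shCtrl and 79.4, 69.9 and 60.2 CPM in shPRRC2B. The lines parted in total RNA by 0.19 on the log2 scale and overlapped in polysome RNA, and the TE change of AURKA was -0.24 (95% interval -0.61 to 0.13, edgeR adjusted p = 0.325). AURKB, the kinase of the chromosomal passenger complex, was at 78.4, 75.6 and 70.1 CPM in shCtrl and 74.2, 71.4 and 75.9 CPM in shPRRC2B in total RNA. Polysome RNA of AURKB stood at 166, 145 and 139.5 CPM in shCtrl and 143, 117 and 145 CPM in shPRRC2B. Its groups overlapped in both fractions, with a TE change of -0.14 (95% interval -0.49 to 0.22, edgeR adjusted p = 0.589).

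PLK1, a kinase with roles from mitotic entry to cytokinesis, was at 129.9, 135 and 129.7 CPM in shCtrl and 154, 158 and 150.2 CPM in shPRRC2B in total RNA. PLK1 in polysome RNA was at 111, 123 and 121 CPM in shCtrl and 107, 99.6 and 91.4 CPM in shPRRC2B. The shPRRC2B libraries were all higher in total RNA and all lower in polysome RNA, and the TE change of -0.48 (standard error 0.15, edgeR adjusted p = 0.0276) lay just under the size threshold. Without shPRRC2B polysome replicate 1 it was -0.60 and without shCtrl polysome replicate 1 -0.56, both called TE-down. PLK4, which starts centriole duplication, had a TE change of 0.26 (95% interval -0.19 to 0.70, edgeR adjusted p = 0.394).

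In the chromosomal passenger complex, which carries Aurora B to centromeres and the midzone, INCENP fell in TE and the other members were not called. INCENP (ENSG00000149503.13, chromosome 11, 62123998 to 62153169, plus strand), the scaffold, was at 108, 117 and 104 CPM in shCtrl and 122, 123 and 118 CPM in shPRRC2B in total RNA. Among polysome libraries it lay at 7.59, 4.34 and 6.66 CPM in shCtrl and 3.01, 2.58 and 4.47 CPM in shPRRC2B. It was the gene least present in polysome RNA relative to total RNA in shCtrl, and its polysome libraries overlapped between the lines. The polysome RNA change was -0.89 (standard error 0.22, edgeR adjusted p = 0.00354), the total RNA change 0.14 and the TE change -1.04 (standard error 0.27, edgeR adjusted p = 0.00889). With the trend on transcript length removed, INCENP was not called in TE (-0.71, edgeR adjusted p = 0.0745). Its polysome call was lost with the trend on coding length removed (-0.48), with the replicate block beside the transcript length trend (-0.60, edgeR adjusted p = 0.0508) and in the polysome libraries alone (-0.89, edgeR adjusted p = 0.0675). BIRC5 (survivin) had a TE change of 0.094 (95% interval -0.25 to 0.44, edgeR adjusted p = 0.717) and CDCA8 (borealin) of -0.45 (standard error 0.18, edgeR adjusted p = 0.0779).

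Of the spindle checkpoint genes, BUB1B fell in TE and BUB1, BUB3, MAD2L1 and TTK were not called. BUB1B (ENSG00000156970.13, chromosome 15, 40161023 to 40221123, plus strand), which codes for the checkpoint protein BUBR1, was at 68.9, 68.0 and 74.6 CPM in shCtrl and 82.5, 80.8 and 80.1 CPM in shPRRC2B in total RNA. In polysome RNA it was at 16.0, 12.4 and 13.8 CPM in shCtrl and 9.72, 8.88 and 9.23 CPM in shPRRC2B. All shPRRC2B libraries were higher than the shCtrl ones in total RNA and lower in polysome RNA. Its polysome RNA fell (-0.60, standard error 0.14, edgeR adjusted p = 0.00209) and its TE fell (-0.80, standard error 0.18, edgeR adjusted p = 0.00369), and the TE call was lost with the trend on coding length removed (-0.24, edgeR adjusted p = 0.31). Its polysome call was lost with the trend on transcript length removed (-0.39) or on coding length removed (-0.15), and with the 6 polysome libraries fitted alone (-0.61, edgeR adjusted p = 0.0555).

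MAD2L1, the checkpoint protein MAD2, was at 114, 116 and 124 CPM in shCtrl and 101, 104 and 94.7 CPM in shPRRC2B in total RNA. Its polysome libraries held 128, 279.9 and 226 CPM in shCtrl and 313, 216 and 192 CPM in shPRRC2B. Replicate 1 was the lowest of the shCtrl polysome libraries and the highest of the shPRRC2B ones, and the groups overlapped there. The TE change of MAD2L1 was 0.42 (95% interval -0.22 to 1.06, edgeR adjusted p = 0.327). BUB3, which binds BUB1 and BUBR1, was higher in every shPRRC2B polysome library and lower in every shPRRC2B total library, with a TE change of 0.37 (standard error 0.17, edgeR adjusted p = 0.117). BUB3 and MAD2L1 have long untranslated 3' parts beside short coding parts, and with the trend on transcript length removed both were TE-up (1.05 and 0.87). BUB1 and TTK, the checkpoint kinases, had TE changes of -0.25 and -0.43.

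Subunits of the APC/C, the ubiquitin ligase of anaphase, changed in both directions. TE rose in ANAPC5, fell in ANAPC1 and CDC27, and was not called in 6 of the 9 subunits. ANAPC5 (ENSG00000089053.13, chromosome 12, 121308245 to 121399896, minus strand), a scaffold subunit, was at 202, 196 and 183 CPM in shCtrl and 201, 207 and 217 CPM in shPRRC2B in total RNA. The polysome levels were 205, 224 and 178 CPM in shCtrl and 407, 360.2 and 377 CPM in shPRRC2B. The total libraries overlapped and every polysome library of shPRRC2B was above every one of shCtrl. The polysome RNA change was 0.91 (standard error 0.12, edgeR adjusted p = 1.3e-05) and the TE change 0.81 (standard error 0.17, edgeR adjusted p = 0.00207), and the TE call of ANAPC5 was kept under every alternative tried.

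CDC27 (ENSG00000004897.12, chromosome 17, 47117703 to 47189422, minus strand), a subunit with tetratricopeptide repeats that takes part in binding coactivators, was at 94.5, 88.7 and 101 CPM in shCtrl and 114, 121 and 119.6 CPM in shPRRC2B in total RNA. Polysome RNA of CDC27 stood at 30.9, 32.7 and 31.6 CPM in shCtrl and 23.0, 17.2 and 14.7 CPM in shPRRC2B. The shPRRC2B libraries were all higher in total RNA and all lower in polysome RNA. The polysome RNA change was -0.79 (standard error 0.15, edgeR adjusted p = 0.000325) and the TE change -1.11 (standard error 0.20, edgeR adjusted p = 0.000669). The polysome call, unlike that in TE, was lost with the trend on transcript length removed (-0.37) or on coding length removed (-0.41). ANAPC1 (ENSG00000153107.13, chromosome 2, 111611639 to 111884690, minus strand), the largest subunit, was at 86.7, 80.0 and 81.0 CPM in shCtrl and 119, 121 and 117 CPM in shPRRC2B in total RNA. ANAPC1 in polysome RNA was at 28.6, 24.5 and 25.8 CPM in shCtrl and 32.8, 20.3 and 22.4 CPM in shPRRC2B. Only its total RNA groups parted, with a rise of 0.53 (standard error 0.14, edgeR adjusted p = 0.00879) that missed the size threshold in 7 of 11 alternatives (down to 0.34) and without any 1 of the 6 polysome libraries (0.48). Its TE change of -0.59 (standard error 0.21, edgeR adjusted p = 0.0459) lay at the threshold, was lost without 10 of the 12 libraries in turn (all but shCtrl polysome replicate 2 and shPRRC2B polysome replicate 1, between -0.89 and -0.49 over the 12), and turned to 0.087 with the trend on transcript length removed.

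Of the other subunits, CDC16 fell in both fractions, with -0.60 (standard error 0.12, edgeR adjusted p = 0.00123) in total RNA and -0.82 (standard error 0.13, edgeR adjusted p = 7.6e-05) in polysome RNA, with a TE change of -0.21. With the trend on coding length removed, the polysome change of CDC16 lay just under the threshold (-0.50). ANAPC4 rose in both, with 0.55 (standard error 0.16, edgeR adjusted p = 0.0117) in total RNA and 0.50 (standard error 0.18, edgeR adjusted p = 0.0289) in polysome RNA, the latter at the size threshold. The polysome call of ANAPC4 was lost in 7 of 11 alternatives and without any 1 of the libraries but shPRRC2B polysome replicate 2 (0.18 to 0.53 over the 12, the lowest without shPRRC2B polysome replicate 1). Its total RNA call was lost with total counts (0.47) and with the trend on coding length removed (0.50, just under the threshold), and without shCtrl total replicate 1, shCtrl total replicate 2 or shPRRC2B total replicate 3 (edgeR adjusted p up to 0.0654). ANAPC7 rose in total RNA (0.61, standard error 0.13, edgeR adjusted p = 0.00182), and 11.4% of its exon bases overlap another RNA of the same strand. CDC23 rose in polysome RNA (0.74, standard error 0.15, edgeR adjusted p = 0.0009), but not without shPRRC2B polysome replicate 1 (0.42). ANAPC11, the RING subunit, and ANAPC13 were not called, with TE changes of 0.63 (standard error 0.24, edgeR adjusted p = 0.056) and 0.27. ANAPC11 was TE-up in 6 alternatives, between 0.58 and 0.70, among them the replicate block within each line (0.62, edgeR adjusted p = 0.0473), and when replicate 3 of shCtrl total RNA (0.74) or replicate 1 of shCtrl polysome RNA (0.78) was left out. The exons of ANAPC13 overlap CEP63 on the opposite strand over 19.3% of their bases.

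Among coactivators and E2 enzymes of the APC/C, UBE2S changed most. UBE2S (ENSG00000108106.14, chromosome 19, 55399745 to 55407788, minus strand), the E2 that extends ubiquitin chains, was at 266, 333 and 243 CPM in shCtrl and 136, 137 and 119.998 CPM in shPRRC2B in total RNA. Among polysome libraries it lay at 2157, 1646 and 1435 CPM in shCtrl and 1122, 1131 and 1266 CPM in shPRRC2B. Every shPRRC2B library was below every shCtrl library of its fraction. The total RNA change was -1.10 (standard error 0.16, edgeR adjusted p = 6.85e-05) and the polysome RNA change -0.57 (standard error 0.16, edgeR adjusted p = 0.00727), and the TE change of 0.53 (standard error 0.22, edgeR adjusted p = 0.092) was not called. Without shCtrl polysome replicate 1, the highest library, UBE2S was TE-up (0.67, edgeR adjusted p = 0.00751) and its fall in polysome RNA missed the size threshold (-0.48).

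UBE2C, the E2 that starts ubiquitin chains, was at 84.2, 85.8 and 81.1 CPM in shCtrl and 62.3, 64.4 and 65.0 CPM in shPRRC2B in total RNA. In polysome RNA it was at 472, 411 and 353 CPM in shCtrl and 419, 349 and 383 CPM in shPRRC2B. It was lower in every shPRRC2B library of total RNA, by less than the size threshold (-0.39), and overlapped in polysome RNA, with a TE change of 0.29 (95% interval -0.086 to 0.66, edgeR adjusted p = 0.246). CDC20, the coactivator of mitosis, was at 107, 117 and 106 CPM in shCtrl and 155, 152 and 149.8 CPM in shPRRC2B in total RNA. Its polysome libraries held 159, 152 and 138 CPM in shCtrl and 190.4, 168 and 183 CPM in shPRRC2B. It was higher in every shPRRC2B library of both fractions, by 0.47 in total RNA and 0.27 in polysome RNA on the log2 scale, with a TE change of -0.19 (95% interval -0.52 to 0.14, edgeR adjusted p = 0.382). FZR1, the coactivator CDH1 of late mitosis and G1, had a TE change of -0.13 (95% interval -0.50 to 0.23, edgeR adjusted p = 0.605).

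PTTG1, the securin that restrains separase, was at 61.5, 59.7 and 57.6 CPM in shCtrl and 41.6, 45.9 and 48.04 CPM in shPRRC2B in total RNA. The polysome levels were 496, 516 and 426 CPM in shCtrl and 454, 481 and 438 CPM in shPRRC2B. As for UBE2C, every shPRRC2B library of total RNA was lower (-0.40 on the log2 scale) and the polysome libraries overlapped. The TE changes of PTTG1 and of ESPL1, the separase gene, were 0.33 (95% interval -0.018 to 0.69, edgeR adjusted p = 0.15) and -0.51 (95% interval -0.96 to -0.071, edgeR adjusted p = 0.0793), and neither was called.

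All 6 spindle and chromosome genes were TE-down and fell in polysome RNA. The polysome calls of ASPM (-0.42 and -0.29) and CENPE (-0.39 and -0.23) were lost with the trend on transcript length or on coding length removed, and the other 4 were kept under every alternative tried. MKI67 (ENSG00000148773.14, chromosome 10, 128096659 to 128126423, minus strand), which codes for the proliferation marker Ki-67 on the surface of mitotic chromosomes, was at 270.4, 268 and 311 CPM in shCtrl and 471, 501 and 481 CPM in shPRRC2B in total RNA. Polysome RNA of MKI67 stood at 28.2, 26.2 and 34.4 CPM in shCtrl and 7.05, 7.26 and 6.66 CPM in shPRRC2B. The fractions moved in opposite directions with no overlap between the lines. Total RNA rose by 0.78 (standard error 0.12, edgeR adjusted p = 0.00013), polysome RNA changed by -2.08 (standard error 0.15, edgeR adjusted p = 1.78e-08) and TE by -2.85 (standard error 0.19, edgeR adjusted p = 4.17e-07). In TE this was the largest change of the 48 genes, and it was called under every alternative tried, between -2.98 and -1.86.

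TPX2 (ENSG00000088325.16, chromosome 20, 31739271 to 31801805, plus strand), which activates Aurora A on the spindle, was at 172, 172 and 169 CPM in shCtrl and 219, 215 and 214 CPM in shPRRC2B in total RNA. TPX2 in polysome RNA was at 71.6, 64.5 and 69.3 CPM in shCtrl and 34.8, 38.5 and 30.9 CPM in shPRRC2B. Replicates were close in both fractions and the lines did not overlap in either. The TE change was -1.31 (standard error 0.16, edgeR adjusted p = 3.59e-05). TOP2A (ENSG00000131747.15, chromosome 17, 40388525 to 40417896, minus strand), the topoisomerase that untangles sister chromatids, was at 439, 466 and 479.7 CPM in shCtrl and 378, 405 and 392 CPM in shPRRC2B in total RNA. Among polysome libraries it lay at 116, 100.5 and 114 CPM in shCtrl and 45.7, 39.7 and 33.3 CPM in shPRRC2B. It was lower in shPRRC2B in both fractions, with log2 changes of -0.24 in total RNA, short of a call, and -1.48 (standard error 0.13, edgeR adjusted p = 2.59e-07) in polysome RNA, and with a TE change of -1.24 (standard error 0.18, edgeR adjusted p = 0.000143).

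CENPF (ENSG00000117724.15, chromosome 1, 214603185 to 214664574, plus strand), a kinetochore and nuclear matrix protein, was at 287, 271 and 321 CPM in shCtrl and 287, 304 and 289.7 CPM in shPRRC2B in total RNA. In polysome RNA it was at 62.1, 29.9 and 33.9 CPM in shCtrl and 14.9, 13.0 and 10.3 CPM in shPRRC2B. The total libraries overlapped, shCtrl polysome replicate 1 stood above the other shCtrl polysome libraries, and all 3 stood above shPRRC2B. The TE change was -1.73 (standard error 0.29, edgeR adjusted p = 0.000464). With each library left out in turn it lay between -1.97 and -1.36 and stayed called. CENPE (ENSG00000138778.14, chromosome 4, 103105349 to 103198445, minus strand), the kinesin of the kinetochore, was at 78.3, 77.1 and 96.3 CPM in shCtrl and 109, 114 and 124 CPM in shPRRC2B in total RNA. Its polysome libraries held 14.4, 13.5 and 19.6 CPM in shCtrl and 11.7, 6.11 and 6.28 CPM in shPRRC2B. Its lines parted in both fractions, with a TE change of -1.43 (standard error 0.28, edgeR adjusted p = 0.00144), which was not called with the trend on transcript length removed (-0.72, edgeR adjusted p = 0.0538). ASPM (ENSG00000066279.19, chromosome 1, 197084121 to 197146694, minus strand), a spindle pole protein, was at 136, 136 and 173 CPM in shCtrl and 181, 191 and 198 CPM in shPRRC2B in total RNA. The polysome levels were 36.8, 27.9 and 39.7 CPM in shCtrl and 14.4, 17.0 and 17.8 CPM in shPRRC2B. The lines parted in both fractions here too, with a TE change of -1.45 (standard error 0.21, edgeR adjusted p = 0.000131).

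The TE changes moved with the length of the mRNA. Lengths are those of the canonical transcripts of GENCODE 44, known for all 48 genes and for 15642 (86.1%) of the genes tested. Across the 48 genes, Pearson's r between the TE change and log2 length was -0.68 and Spearman's rho -0.58, as a description over genes that share the same libraries. Across all genes with a known length they were -0.31 and -0.41. With coding length in place of transcript length they were -0.76 and -0.67 across the 48 genes, and -0.29 and -0.34 across 13596 genes. Of the 5 genes under 1000 nt, 2 were TE-up and none TE-down, where 20.3% and 1.99% of all genes of that class were. The 14 genes of at least 1000 and under 2500 nt held no call, where 15.6% of all genes of that class were TE-up and 5.14% TE-down. Of the 18 of at least 2500 and under 5000 nt, 1 was TE-up and 4 were TE-down, where 6.96% and 19.7% of all genes of that class were. Of the 11 of 5000 nt or more, 7 were TE-down (63.6%), where 39.8% of all genes of that class were, with a median TE change of -1.11 beside -0.63.

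With the trend on transcript length removed from each library, 4 of the 48 genes were TE-up, where 10.4% of 15642 genes were, and 14 TE-down, where 11.2% were. CKS1B and ANAPC5 stayed TE-up, joined by BUB3 and MAD2L1. BUB1B, CDC27, TPX2, ASPM, CENPF, TOP2A and MKI67 stayed TE-down, and CCNB1 (-0.62), CCNB2 (-0.66), CDK1 (-0.61), PLK1 (-0.62), CDC25C, AURKB and CDCA8 were then past the thresholds as well. With the trend on coding length removed, 5 genes were TE-down (CDC27, TPX2, CENPF, TOP2A and MKI67), where 11.9% of 13596 genes were, and 3 TE-up (PLK4, ANAPC5 and CDC23), where 13.3% were. Signs of 7 of the 34 TE changes that were not called turned with the transcript length trend removed (CCNE1, BUB1, ANAPC13, FZR1, UBE2C, PTTG1 and ESPL1), none of them to a call. Across all settings and left-out libraries, the TE call was kept by 6 genes: ANAPC5, CDC27, TPX2, CENPF, TOP2A and MKI67.

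**Figure D4:**
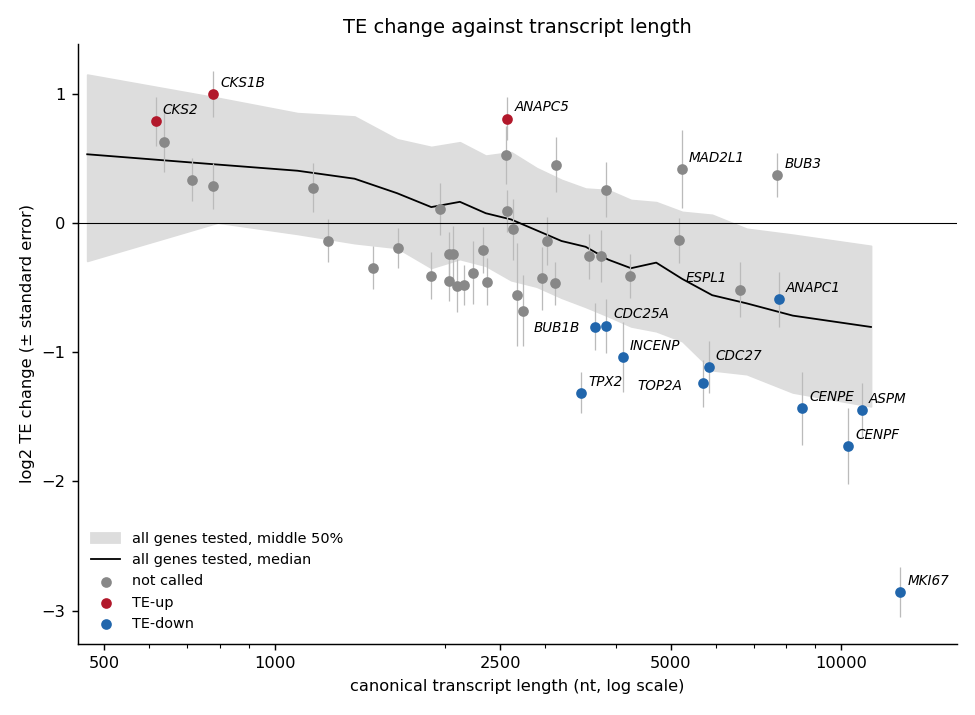
Log2 TE change of the 48 genes (points, standard errors as bars) against the length of the canonical transcript in nucleotides on a log axis. The line and the grey band are the median and the middle 50% of all genes tested, in 20 length classes. Genes over 5000 nt hold 7 of the TE-down genes, MKI67 lies furthest below the band at -2.85, and MAD2L1 and BUB3 lie above it.

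The same genes differed widely in how much of their mRNA was found in polysomes already in shCtrl. The log2 polysome-to-total ratio in shCtrl was above 0 and called in 12 genes, where 32.5% of all genes were, and below 0 and called in 23, where 39.8% were. It was highest in ANAPC11 (3.93, standard error 0.19), CKS2 (3.46), CKS1B (3.04) and PTTG1 (3.01), and CKS1B and PTTG1 did not differ beyond their standard errors. It was lowest in INCENP (-4.14), MKI67 (-3.26), ESPL1 (-3.02) and CENPF (-2.80). All 6 spindle and chromosome genes were below 0. With the trend on coding length removed, ASPM (0.87, called), CENPE (0.29) and CENPF (0.049) were above 0. TOP2A (-0.021), TPX2 (-0.35) and MKI67 (-0.36) were then below 0 and not called. The ratio of CKS1B (0.16) was not called either, while those of CKS2 (0.55), ANAPC11 (1.11) and PTTG1 (1.68) still were. The zero of this scale depends on the scaling: the median of all genes was -0.22 with TMM over all libraries and -1.22 with TMM within each fraction or total counts, where 8 genes were above and 36 below, against 17.6% and 58.8% of all genes (17.7% and 58.8% with total counts). Such a change of scaling moves all genes by about the same amount.

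In shPRRC2B the ratio was above 0 and called in 12 genes, where 36.6% of all genes were, and below 0 and called in 24, where 42.3% were. MKI67 was then lowest at -6.11, beside -3.26 in shCtrl, and ANAPC11 highest at 4.56. Across the 48 genes, the ratio in shCtrl and log2 length had a Pearson's r of -0.84, beside -0.46 across all genes with a known length, with the same caution on shared libraries. With coding length these were -0.88 and -0.62.

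**Figure D5:**
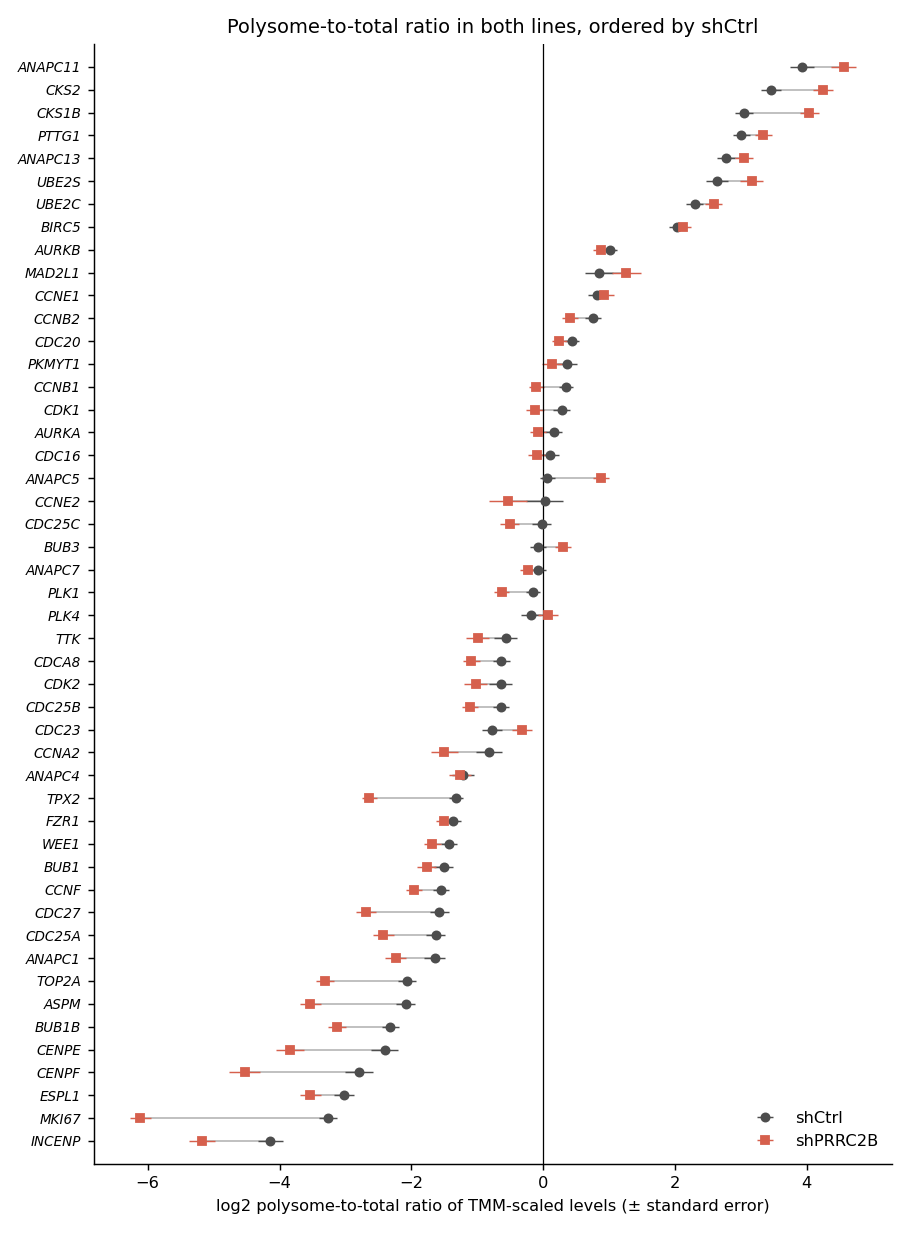
Log2 polysome-to-total ratio of TMM-scaled levels in shCtrl (grey circles) and shPRRC2B (red squares) with standard errors as bars, the 48 genes ordered by the value in shCtrl. ANAPC11 is highest in both lines, INCENP is lowest in shCtrl at -4.14 and MKI67 in shPRRC2B at -6.11.

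Per length of transcript, the levels of the 48 genes in shCtrl total RNA ran from 3.16 CPM per kb in CCNE2 to 109.6 in UBE2S and 108 in UBE2C, which adjoin in the order. CKS2 and CKS1B followed at 95.9 and 94.2 CPM per kb, then ANAPC11 at 87.5, PTTG1 at 83.4 and TOP2A at 81.0. In shCtrl polysome RNA, ANAPC11 and CKS2 led with 1335 and 1052 CPM per kb, and INCENP was lowest at 1.51.

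Genes of the same pathway outside the 48 were counted from 4 lists, to be read against the 10.7% of all genes that were TE-up and the 16.4% that were TE-down. Of 9 other APC/C subunits and inhibitors, 3 were TE-up (ANAPC15, ANAPC16 and CDC26) and none TE-down, with TE changes from -0.47 in UBE2D1 (edgeR adjusted p = 0.0991) to 0.99 in ANAPC15 (edgeR adjusted p = 0.00233). Of 27 other kinetochore and checkpoint genes tested, 2 were TE-up and 2 TE-down, and the median TE change was -0.27. KNL1, the kinetochore scaffold that recruits BUB1 and BUBR1, was lowest at -2.39 (edgeR adjusted p = 1.11e-05), with a total RNA change of 0.54 and a polysome RNA change of -1.85, and CENPK was highest at 0.66 (edgeR adjusted p = 0.023). Like MKI67, KNL1 passed the thresholds in opposite directions in the fractions, as did CDCA2 of the list that follows.

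Among 32 other genes of mitotic entry, spindle, condensin and cytokinesis, the median TE change was -0.37, with 12 genes TE-down and 1 TE-up (TROAP). The lowest was SMC2, a condensin ATPase, at -1.63 (edgeR adjusted p = 0.000655). The highest value, 2.01 in NUSAP1 (edgeR adjusted p = 0.21), was not called and belongs to a gene at 0 to 1.31 CPM over the 12 libraries. In total RNA, 4 of these 32 genes rose, where 14.9% of all genes did, and none fell. Of 22 transcription factors of the G1/S and G2/M programmes, 3 were TE-up (E2F1, LIN9 and TFDP1) and 7 TE-down, from -1.94 in RBL1 (edgeR adjusted p = 0.000149) to 0.75 in TFDP1 (edgeR adjusted p = 0.0119), with a median of -0.039.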

How the data were processed

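Total RNA and polysome-associated RNA of shCtrl and shPRRC2B cells were compared, 3 libraries per group. The authors deposited raw counts of read pairs per gene name, with no normalization. Per the labels and the methods, Trimmomatic 0.36 served for trimming and HISAT2 2.1.0 (version of the submitters' processing notes) for mapping to GRCh38, and pairs were counted with featureCounts of Subread 2.0.1 on GENCODE 38, with duplicate and chimeric pairs left out and no strand option. Polysome RNA came from lysates cleared of nuclei, of cells given cycloheximide. Whether total RNA came from whole cells or from such lysates is not stated in the methods. Every column with values belonged to a library (0 did not), and 5 columns had neither name nor value.

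In R 4.3.3, edgeR 4.0.16 was used: filterByExpr (minimum count 10), TMM, and the quasi-likelihood test with 4 groups and no block, in 1 fit for all comparisons, adjusted by the Benjamini-Hochberg method over all 18166 genes tested. Standard errors and 95% intervals come from this fit, in which each gene has 1 spread shared by both fractions. As polysome replicates differed more, p-values can be too small for polysome RNA and too large for total RNA. The p-values measure the spread between 3 biological replicates of 1 clone per line. In polysome RNA fitted alone, 16.7% of 15268 genes rose and 18.6% fell, beside 18.4% and 21.4% in the joint fit. INCENP, BUB1B and ANAPC4 then lost their polysome calls. In total RNA fitted alone, 16.4% of 17520 genes rose and 20.5% fell, beside 14.9% and 14.1%. Library totals of 9855734 to 20837542 counts limit the precision of low genes. The steps were tested on simulated data, drawn with the same spread in both fractions, so this could not test the shared spread. Lengths are those of GENCODE 44 canonical transcripts, positions those of its genes on GRCh38, and promoters those of RefSeq.

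All members were named by role. Values per library were given for TE-called genes and a fixed set: CCNA2, CCNB1, CCNB2, CDK1, CKS1B, CKS2, PLK1, AURKA, AURKB, CDC20, BUB1B, MAD2L1, WEE1, CDC25A, ANAPC5, UBE2C, PTTG1, TOP2A and CENPE. UBE2S, given per library for its change in total RNA, was chosen after its values were seen, as were the genes whose sequences are shown. Genes outside the members were named as the extremes of a pathway list, or, in counts of 5 or fewer and for CDCA2, after their values were seen. Members and lists were chosen with earlier results of these data known. The alternatives were DESeq2 1.42.0, other scalings and filters, a replicate block, a per-library offset that takes out the trend with transcript length (lowess, span 0.3), each fraction alone and each library left out. The same offset for coding length was added after the data were seen. One gene of the marker list is not reported here.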

Additional observations from a re-analysis of the deposited data

Results flagged for a closer look

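MKI67 passed the thresholds in opposite directions in the fractions: its total RNA was higher in shPRRC2B (log2 change 0.78) and its polysome RNA lower (-2.08). The difference between the fractions, tested as the TE change in the edgeR fit, was -2.85 (edgeR adjusted p = 4.17e-07). In all 3 shPRRC2B libraries of each fraction the level lay outside the range of shCtrl. No other of the 48 genes was called with opposite signs in both fractions.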

How the results depend on the processing

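The counts of genes called among the 48 depended most on the replicate 1 polysome libraries and on the treatment of length. With each library left out in turn, 3 to 5 genes were TE-up, where 6.82% to 13.3% of all genes were. TE-down genes numbered 10 to 22, where 12.4% to 19.6% of all genes were TE-down. The highest counts were those without shCtrl polysome replicate 1 (5 TE-up, 17 TE-down) and without shPRRC2B polysome replicate 1 (22 TE-down). In polysome RNA 1 to 4 genes rose, where 13.2% to 17.7% of all genes did. Only 1 rose without shPRRC2B polysome replicate 1 (14.4% of all genes rose there). The genes TE-down before were kept in all but 1 case without shCtrl polysome replicate 1 (10 of 11) and in full without the shPRRC2B one. With a minimum of 10 counts in every library, 5 genes were TE-up (16.3% of all genes). With the trend on transcript length removed, 7 genes rose in polysome RNA (3254 of 15642 genes did), and 6 with the replicate block as well (3185 did). With the trend on coding length removed, 5 genes were TE-down (11.9% of all genes), 11 rose (24.6%) and 7 fell (17.7%) in polysome RNA, and 10 had a polysome-to-total ratio below 0 (30.1%). With total counts or TMM within each fraction, 36 genes had a ratio below 0 (58.8% of all genes). The other counts stayed within 1.5 times the reported ones.

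Among the results called, signs turned for the TE change of ANAPC1 with the transcript length trend removed (0.087), with the replicate block as well (0.074) and with the coding length trend removed (0.25), and otherwise only for ratios in shCtrl. With total counts and with TMM within each fraction these were CCNE1 (-0.18 and -0.19), CCNB2 (-0.25 and -0.26) and MAD2L1 (-0.16 and -0.16). With the transcript length trend removed, without and with the replicate block, they were CCNB2 (-0.55 and -0.55) and AURKB (-0.52 and -0.52). With the coding length trend removed they were BUB1 (0.071), MAD2L1 (-0.45), TTK (0.63), ANAPC1 (0.68), ANAPC13 (-0.21), ASPM (0.87), CENPE (0.29) and CENPF (0.049). Of the 34 TE changes not called, 7 turned with the transcript length trend removed, and 7 with the replicate block as well. With the coding length trend removed 13 turned, and at most 1 under any other setting or left-out library. The offsets are built from length, so genes of unusual length move most, and other causes were not tested.

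Deviations of libraries that share a replicate number correlated between -0.06 and 0.051, and those of different numbers between -0.073 and 0.085. No shared deviation by number was seen, which cannot show whether samples of a number came from the same culture. With the replicate block, 3 genes were TE-up and 11 TE-down, as without it, where 9.97% and 15.5% of all genes were. With a block within each line there were 4 and 12, where 9.12% and 14.7% of all genes were. ANAPC11 (0.62, edgeR adjusted p = 0.0473) and CCNA2 (-0.73, edgeR adjusted p = 0.0448) were then called. Low levels in polysome RNA, 2.58 to 7.59 CPM for INCENP, limit what can be said of such genes.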
